A study of Mus musculus with 19 samples.

Results

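H2-Q10 is a class I histocompatibility gene on mouse chromosome 17, and its RNA was measured in the forebrain of EphA4 knockout mice and their wild-type littermates. EphA4 is a receptor tyrosine kinase that binds ephrins at contacts between cells. H2-Q10 was taken by its symbol: 1 of the 8751 probe sets in the deposited value table, probe set 17337152 (Entrez Gene 15007), carries H2-Q10 as its only gene symbol, and no probe set lists it among several. It is therefore 1 of the 1121 genes that have a probe set of their own there. The study crossed the genotype (EphA4 knockout or wild type, abbreviated KO and WT, both on a mixed BL6/10 background) with 6 h of sleep deprivation or undisturbed control conditions under 12 h of light and 12 h of darkness. Of the 19 arrays, 10 are of wild-type mice (4 undisturbed and 6 sleep-deprived) and 9 of knockouts (4 undisturbed and 5 sleep-deprived), which makes 4 groups. Each array (Affymetrix Mouse Gene 2.0 ST) was hybridised with forebrain total RNA, and the labels do not say whether an array is 1 animal or a pool, so the spread between arrays may be partly technical. The labels give no age, no sex and no detail of the EphA4 allele.

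H2-Q10 was proposed for description because its level differed between the genotypes in these same arrays. The genotype differences below are therefore a description and carry no test, while the effect of sleep deprivation and its difference between genotypes were tested. Those tests use the same group means. By design, the interaction estimate correlates at 0.65 with the genotype difference after sleep deprivation and at -0.76 with that in controls. For sleep deprivation in knockouts these correlations are 0.49 and -0.53, in wild types -0.43 and 0.55, and averaged over genotypes 0.06 and 0. The tests other than the averaged one are thus not free of how the gene was chosen. Epha4, on chromosome 1, has no probe set under its own symbol in the table used here, so the genotype labels could not be checked against it.

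Classical class I molecules (H2-K, H2-D and H2-L in the mouse) sit on the surface of nearly all nucleated cells, paired with beta-2 microglobulin, and show peptides from inside the cell to CD8 T cells. Nonclassical class I genes of the Q and T regions encode relatives with narrower expression or fewer alleles, several of which are read by receptors of natural killer cells. H2-Q10 is unusual among them: its product lacks a membrane anchor, is made mainly by the liver and circulates in serum as a secreted class I molecule. In the nervous system, classical class I molecules are also made by neurons, where they have been studied in synaptic plasticity.

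The sequence upstream of H2-Q10 is shown first, since class I promoters share a short block of control elements against which H2-Q10 can be read. In RefSeq's table for GRCm38.p6, H2-Q10 lies on the plus strand, and the bases printed are the 250 before its annotated start, chr17:35469839-35470088. The capitals mark 2 motifs that a search of both strands found there: TTTCACT, the core of the interferon-response element of class I genes, and TATAAA, the TATA box.
H2-Q10: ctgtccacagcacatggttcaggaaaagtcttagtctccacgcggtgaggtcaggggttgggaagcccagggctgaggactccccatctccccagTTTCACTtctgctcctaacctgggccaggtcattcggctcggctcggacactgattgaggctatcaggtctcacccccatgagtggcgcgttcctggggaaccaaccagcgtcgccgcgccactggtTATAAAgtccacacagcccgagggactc
TTTCACT spans positions -155 to -149 from the annotated start and TATAAA positions -28 to -23. For comparison, the matching block of 115 bases is given for the classical genes H2-K1 (minus strand, chr17:34000358-34000472) and H2-D1 (plus strand, chr17:35262909-35263023) and for 2 other Q-region genes, H2-Q4 (plus strand, chr17:35379429-35379543) and H2-Q7 (plus strand, chr17:35439007-35439121). The further capitals mark GGGGATT, a kappa B-like motif, TGACG, as in the X2 or cyclic-AMP-response element, and ATTGG, the CCAAT box read on the other strand.
H2-K1: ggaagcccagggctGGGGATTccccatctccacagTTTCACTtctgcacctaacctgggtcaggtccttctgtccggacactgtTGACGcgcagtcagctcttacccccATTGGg
H2-D1: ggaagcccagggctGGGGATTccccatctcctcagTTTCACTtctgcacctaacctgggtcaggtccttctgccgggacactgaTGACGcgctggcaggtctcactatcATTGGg
H2-Q4: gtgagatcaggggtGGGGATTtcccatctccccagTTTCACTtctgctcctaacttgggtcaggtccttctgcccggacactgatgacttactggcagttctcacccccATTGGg
H2-Q7: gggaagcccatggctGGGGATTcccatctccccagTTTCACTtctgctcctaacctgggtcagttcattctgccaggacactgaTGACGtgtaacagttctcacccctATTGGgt
H2-K1, H2-D1 and H2-Q7 hold all 4 of these capitalised motifs in that order.

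All 5 motifs were searched in windows of 300 bases, from 250 before to 50 after each annotated start. RefSeq's table holds 32851 such windows, and 10 of the 15 class I genes on any probe set used here had one, H2-Q10 among them. TTTCACT was in 8 of the 10 class I windows and in 4.32% of all windows. GGGGATT was in 7 of the 10 and in 3.10% of all windows, and H2-Q10 was one of the class I windows with no match. TGACG was in 5 of the 10 (20.8% of all windows) and ATTGG in 8 of the 10 (37.4%), again with no match in H2-Q10. TATAAA, which H2-Q10 holds, was in 6 of the 10 and in 13.6% of all windows. Those letters are absent from this 300-base window of H2-Q10, which says nothing on the factors that bind other spellings. Likeness to the H2-Q10 window was read over the best-matching stretch alone, whose length varied between relatives. The match was 84.5% for H2-D1 (303 aligned columns), 82.7% for H2-K1 (249), 79.4% for H2-Q7 (267), 78.1% for H2-Q6 (302) and 76.6% for H2-Q4 (304). It was lower for H2-Q2 of the same region, at 67.9% (271 columns). For the T-region genes it was 59.5% for H2-T22 (84 columns), 58.1% for H2-T23 (155) and 55.7% for H2-T3 (316). The map of motif positions draws this difference for 6 genes.

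**Figure D1:**
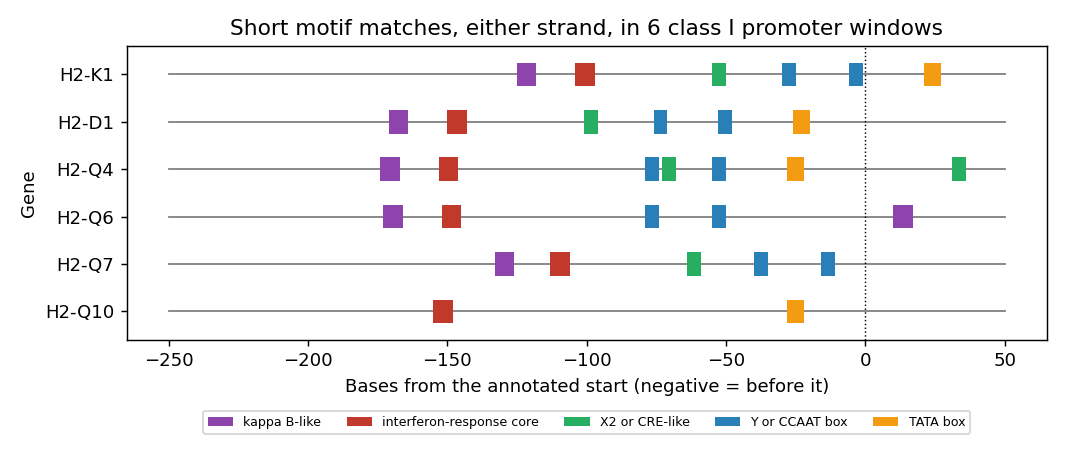
Positions of 5 motifs in the 300-base windows of H2-Q10, H2-K1, H2-D1, H2-Q4, H2-Q6 and H2-Q7, in bases from each gene's annotated start, found on both strands. H2-Q10 carries TTTCACT and TATAAA but neither GGGGATT nor ATTGG, which the other 5 windows hold.

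The levels of H2-Q10 are on the log2 scale of the deposited robust multi-array average, on which 1 unit is a doubling of signal. For scale, the middle probe set of each array lay between 5.90 and 6.07. H2-Q10 was lowest in sleep-deprived wild-type replicate 2, at 5.73, below that array's median of 6.02. Every other array read above its own median, up to 7.12 against 5.98 in sleep-deprived knockout replicate 2. How far these readings exceed background is unknown. The 4 wild-type controls read 6.37, 6.22, 6.05 and 6.34, with a mean of 6.24 ± 0.15 (SD, n = 4). The 4 knockout controls read 6.42, 6.53, 6.55 and 6.87, with a mean of 6.59 ± 0.19 (SD, n = 4). The control groups did not overlap: the lowest knockout control, at 6.42, lay above the highest wild-type control, at 6.37. That gap is smaller than the SD of either group. How many of all probe sets separate the control groups in this way was not counted. No probe set among all 8751 passed the threshold (adjusted p under 0.05, limma, Benjamini-Hochberg) for the genotype in controls, a background of 0%, while 476 had an unadjusted p under 0.05.

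The sleep-deprived groups had the larger SD in both genotypes, a difference in spread that was not tested. In the 6 sleep-deprived wild types the lowest level was 5.73, the median 6.32 and the highest 6.78, with a mean of 6.30 ± 0.36 (SD, n = 6). Both the lowest and the highest wild-type arrays of the series belong to this group. The 5 sleep-deprived knockouts read 6.98, 7.12, 7.01, 6.84 and 6.36, with a mean of 6.86 ± 0.30 (SD, n = 5). In that group 4 arrays lay above every wild-type array, and replicate 5, at 6.36, lay among the wild types.

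The order of the group means was wild-type control, sleep-deprived wild type, knockout control and sleep-deprived knockout. Neighbours in that order overlapped: 15 of 24 pairs of arrays ran in the order of the means between the wild-type groups, 19 of 24 between sleep-deprived wild types and knockout controls, and 15 of 20 between the knockout groups. By genotype alone, the 10 wild-type arrays averaged 6.28 ± 0.29 (SD, n = 10) and the 9 knockout arrays 6.74 ± 0.28 (SD, n = 9). All 9 knockout arrays lay above the wild-type median of 6.31, 5 of them lay above the highest wild-type array, and 6 wild-type arrays lay below the lowest knockout array. The plot of H2-Q10 by array shows both the shift and the overlap.

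**Figure D2:**
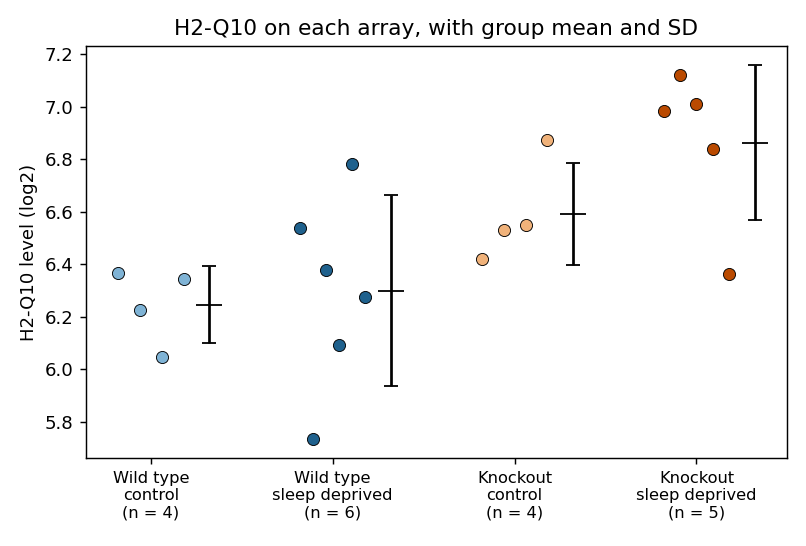
Deposited log2 level of H2-Q10 (y axis) on each of the 19 arrays, by group (x axis); points are arrays, and the bar beside each group gives its mean and SD. Knockout controls sit at 6.42 to 6.87, all above the wild-type controls at 6.05 to 6.37, and 4 of 5 sleep-deprived knockouts lie above every wild-type array.

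As a description, the knockout level of H2-Q10 exceeded the wild-type level by 0.46 on the log2 scale averaged over both conditions (SE 0.12), a 1.37-fold higher level. The difference was 0.35 (SE 0.18, 1.27-fold) in controls and 0.56 (SE 0.16, 1.48-fold) after sleep deprivation. These values are what the gene was picked on and support nothing further. Over all probe sets, 1 (0.0114%) passed for the averaged genotype contrast and 147 (1.68%) for the genotype after sleep deprivation, counts which are given as background only.

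Sleep deprivation did not move H2-Q10 past the threshold in either genotype. Averaged over both, the sleep-deprived level differed from the control level by 0.16 on the log2 scale (SE 0.12, 95% interval -0.09 to 0.41), with an adjusted p of 0.80 in limma. An exact two-sided permutation test over the 26460 rearrangements of arrays within genotypes gave p = 0.22. The interval spans no change and a rise of up to 0.41, so the arrays do not settle whether H2-Q10 responds to lost sleep. Of all probe sets, 0.263% passed in this contrast.

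In wild types the sleep-deprived minus control difference was 0.05 (SE 0.17, 95% interval -0.29 to 0.40), with an adjusted p of 0.96 in limma and p = 0.78 in an exact permutation test over 210 rearrangements. No probe set passed in that contrast (background 0%), and 683 had an unadjusted p under 0.05. The wild-type estimate had no settled sign: it was -0.01 without control replicate 3 and -0.043 without sleep-deprived replicate 5, and it was 0.17 without sleep-deprived replicate 2, the lowest array.

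In knockouts the difference was 0.27 (SE 0.17, 95% interval -0.09 to 0.63, 1.21-fold), with an adjusted p of 0.59 in limma and p = 0.16 in an exact permutation test over 126 rearrangements. Here 3 of the 5 sleep-deprived arrays exceeded the highest knockout control, and 0.263% of probe sets passed. Without sleep-deprived replicate 5 the difference was 0.40 and its adjusted p stayed above the threshold. The difference between the genotypes in their response, the interaction, was 0.22 (SE 0.24, 95% interval -0.29 to 0.72, adjusted p = 0.75 in limma), against 0.0686% of probe sets called. The responses of the genotypes were thus not distinguishable at this number of arrays.

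The other class I and antigen presentation genes give the setting for H2-Q10. The list holds 64 genes besides it, of which 16 were on a probe set, on 12 probe sets in all, and 4 had a probe set of their own: H2-K1, a classical class I chain, H2-Q4 and H2-Q5, of the same Q region as H2-Q10, and H2-T23, which encodes the nonclassical molecule Qa-1 that binds natural killer cell receptors. None of the 12 passed the threshold in any of the 7 contrasts (limma). At an unadjusted p under 0.05, 4 of the 12 passed for sleep deprivation in knockouts (11.8% of all probe sets did), 1 for the genotype in controls (5.44%), 1 for the genotype after sleep deprivation (15.4%), 2 for the interaction (11.5%) and 0 for the other 3 contrasts. For the genotype averaged over conditions, 5 of the 12 had a positive sign and 7 a negative one, their median difference was -0.01 against 0.01 over all probe sets, and they ranged from -0.06 to 0.12.

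H2-Q10's own genotype difference of 0.46 lies outside that range and is the contrast the gene was chosen on. H2-K1 differed between the genotypes by -0.05 (SE 0.08), H2-Q4 by 0.04 (SE 0.09), H2-Q5 by 0.01 (SE 0.12) and H2-T23 by -0.03 (SE 0.06). These averages join conditions that did not always share a sign, none of which passed: H2-Q5 differed by -0.17 in controls and 0.20 after sleep deprivation, H2-Q4 by 0.16 and -0.08, H2-K1 by 0.07 and -0.16 and H2-T23 by -0.09 and 0.02. In level, H2-K1 read 7.64 ± 0.15 (SD, n = 4) in wild-type controls and 7.71 ± 0.26 (SD, n = 4) in knockout controls. H2-Q4 read 5.99 ± 0.12 (SD, n = 4) and 6.15 ± 0.12 (SD, n = 4) in the same groups. The probe sets that carry 2 class I symbols, H2-Q2 with H2-D1, H2-Q6 with H2-Q8, H2-T22 with H2-T9 and H2-T3 with H2-T18, differed by 0.01, 0.06, -0.06 and 0.12.

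After sleep deprivation in knockouts, H2-K1 differed from knockout controls by -0.25 (adjusted p = 0.42 in limma) and the pair H2-T22 with H2-T9 by 0.37 (adjusted p = 0.32). A pair of probe sets, both assigned to H2-Q7, H2-Q8 and H2-Q9, gave opposite signs in that contrast: -0.29 (adjusted p = 0.19) and 0.29 (adjusted p = 0.33). None of these passed, and the disagreement means that no single value can be given for those 3 genes. Class I genes are near copies of each other, the probe sequences were not used here, and how far a probe set reads its relatives was not tested. The plot of class I differences sets H2-Q10 beside all 12.

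**Figure D3:**
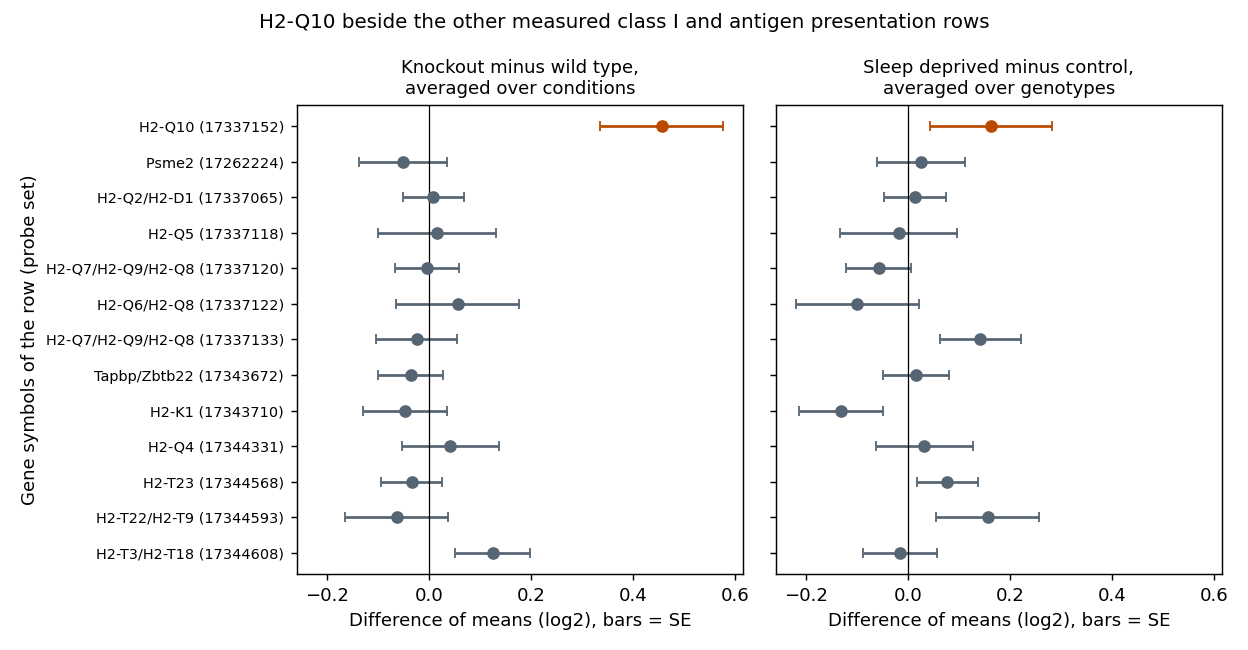
Genotype difference (knockout minus wild type) and sleep deprivation difference (sleep-deprived minus control) in log2 units for H2-Q10 and the 12 other class I and antigen presentation probe sets, each averaged over the other factor (x axes, 1 panel each); points are differences of means and bars are SE from the limma fit. H2-Q10 stands at 0.46 for the genotype averaged over conditions, the value it was chosen on, and the others at -0.06 to 0.12.

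Genes whose products read class I molecules or respond with them were thinly covered. Of 23 class I receptor genes, 6 were on 3 probe sets, none passed, and Klra6, of the Ly49 family, differed between genotypes by -0.16 (adjusted p = 0.55 in limma). Of 16 class II and other histocompatibility region genes, 2 were on a probe set: Cfb, complement factor B, and Cd74, the invariant chain of class II molecules, whose probe set also carries Mir5107. The Cd74 probe set differed between genotypes by 0.24 (adjusted p = 0.56) and did not pass. That average joins 0.43 in controls (adjusted p = 0.87 in limma) and 0.05 after sleep deprivation (adjusted p = 0.92). None of the 26 genes on a separate interferon-responsive list had a probe set here, so that list gave no value. Interferon signalling was not tested.

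H2-Q10 and Epha4 are on different chromosomes, and the measured genes around H2-Q10 can be read beside it. On chromosome 17, among genes with a probe set of their own, the 3 nearest before it were Atp6v1g2, H2-Q4 and H2-Q5, and the 3 after it were Ddr1, H2-T23 and Gm10499. H2-Q6 and H2-Q7, measured only on probe sets shared with other class I genes, lie closer to it than H2-Q4. The nearest genes with their own probe set, H2-Q5 and Ddr1, were separated from it by 5 and 14 other annotated genes. Their genotype differences, averaged over conditions, ran from -0.03 to 0.10 and none passed. Ddr1, a collagen receptor kinase, had the highest of them, 0.10, with 0.20 after sleep deprivation (adjusted p = 0.27 in limma).

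The liver is the main source of H2-Q10, so genes of liver and blood were read beside it. Of 16 liver genes, 5 were on 6 probe sets, and Alb and Apoa1 were not among them. The sum of their linear signals was 1936 to 2221 in wild-type controls, 2057 to 2277 in sleep-deprived wild types, 1891 to 2125 in knockout controls and 2006 to 2130 in sleep-deprived knockouts. Its medians in those groups were 2130, 2109, 2047 and 2033, the reverse of the order of the H2-Q10 means. That sum is mostly 1 probe set, of Trf, the iron carrier transferrin, with Srprb, which made up 80.5% to 85.6% of it on single arrays, differed between genotypes by -0.09 (adjusted p = 0.60 in limma) and in brain is also made by oligodendrocytes. Without it, the sum over the other 5 probe sets had medians of 325, 345, 353 and 365 in wild-type controls, sleep-deprived wild types, knockout controls and sleep-deprived knockouts, the same order as the H2-Q10 means. Its ranges were 315 to 346, 328 to 381, 342 to 400 and 359 to 397, so that neighbouring groups overlapped. The sum without Trf was added after seeing the data. Apoa2 was the largest part of this sum: it read 7.52 in wild-type controls, against 4.94 to 5.46 for the other probe sets. The order of the sum and that of Apoa2, given below, are therefore not separate observations. For the genotype averaged over conditions, 4 of the 6 liver probe sets had a positive sign, their median was 0.11 against 0.01 over all probe sets, 2 had an unadjusted p under 0.05 (8.73% of all probe sets did), and none passed the threshold. The part of liver genes in the genotype difference of H2-Q10 was not tested. Apoa2, an apolipoprotein of high-density lipoprotein, followed the order of the H2-Q10 means: 7.52 ± 0.07 (SD, n = 4), 7.64 ± 0.11 (SD, n = 6), 7.69 ± 0.10 (SD, n = 4) and 7.79 ± 0.05 (SD, n = 5). In deviations from the group means, Apoa2 correlated with H2-Q10 at only 0.23. Without the 2 or the 3 arrays farthest from their group mean of H2-Q10, it stood at 0.02 and -0.16. Its genotype difference was 0.16 (SE 0.05, adjusted p = 0.31 in limma) and did not pass. The protease inhibitor genes Serpina1a and Serpina1b, also liver genes, differed by 0.14 (adjusted p = 0.57 in limma) and -0.07. The pair of probe sets shared by Cyp3a11 and other Cyp3a genes, which encode drug-oxidising enzymes, differed by 0.09 (adjusted p = 0.67) and 0.12 (adjusted p = 0.57). In its group means Serpina1a also followed the order of H2-Q10, while Serpina1b and the Cyp3a pair did not. Of 12 blood genes, 3 were on 5 probe sets, and their summed signal ranged from 2579 to 5507 in knockout controls, which spans the ranges of the other 3 groups. That sum is mostly 1 probe set of Hba-a1 with Hba-a2, at 11.56 in wild-type controls against 5.63 to 8.23 for the rest. The genotype differences of the 5 ran from -0.09 to 0.19, and 4 were positive. Of them 1 had an unadjusted p under 0.05 in limma, and none passed the threshold.

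Markers of most brain cell types could not be read. Of the neuronal list 1 of 10 genes, Map2, had a probe set, with a signal of 3372 to 3628 over the 19 arrays, and the lists for astrocytes, oligodendrocytes, microglia, endothelium and choroid plexus had none. In bulk forebrain RNA, more RNA per cell and more cells of a type that holds the transcript cannot be told apart.

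Within the 4 groups, H2-Q10 still varied by a residual SD of 0.28, and the genes that varied most like it were read by Pearson's correlation over 770 genes with a usable probe set. Over the 19 arrays, the group differences included, the 5 highest were Polr2k (r = 0.68, rho = 0.61), Hat1 (0.67, rho = 0.59), Ube2d2a (0.66, rho = 0.50), Josd1 (0.64, rho = 0.53) and Apoa2 (0.61, rho = 0.60). Polr2k encodes a shared subunit of the nuclear RNA polymerases, Hat1 a histone acetyltransferase, Ube2d2a a ubiquitin-conjugating enzyme and Josd1 a deubiquitinase. The 2 most negative were Ccnq, cyclin Q, at -0.80 (rho = -0.82), and Lrrc55, a potassium channel subunit, at -0.73 (rho = -0.69). Ccnq had r = -0.77 and Lrrc55 -0.66 without the 2 arrays farthest from the median of H2-Q10, which are sleep-deprived knockout replicate 2 and sleep-deprived wild-type replicate 2. Without them Ube2d2a stood at 0.43, Polr2k at 0.57, Hat1 at 0.61, Josd1 at 0.58 and Apoa2 at 0.52. The correlations are the extremes of 770 over arrays that share RNA quality and hybridisation, and they are given as a description.

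Correlated as deviations from the group means, the 5 highest were Ppp1r11 (0.80), Pdzd2 (0.74), Pms2 (0.72), Rybp (0.72) and Josd1 (0.69). Of the other genes highest over all arrays, Polr2k stood at 0.67, Hat1 at 0.51, Ube2d2a at 0.47 and Apoa2 at 0.23. Ppp1r11, an inhibitor of protein phosphatase 1, is also on chromosome 17. The 2 most negative were Zfp353-ps, a pseudogene, at -0.77, and H2-Q4 at -0.75. H2-Q4 is thus a class I neighbour that ran against H2-Q10 in deviations pooled over the 4 groups, while its averaged genotype difference was 0.04. Several of these rest on few arrays: without sleep-deprived wild-type replicate 2 and sleep-deprived knockout replicate 5, the 2 arrays farthest from their group mean, Pms2 stood at 0.40 and Rybp at 0.35, while Ppp1r11 stood at 0.56 and H2-Q4 at -0.67. With sleep-deprived wild-type replicate 5 left out as well, H2-Q4 stood at -0.42 and Ppp1r11 at 0.71. The array highest for H2-Q10 lay below the mean of H2-Q4 in each group except knockout controls. There replicate 4 was the highest for both genes, at 6.87 and 6.28.

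**Figure D4:**
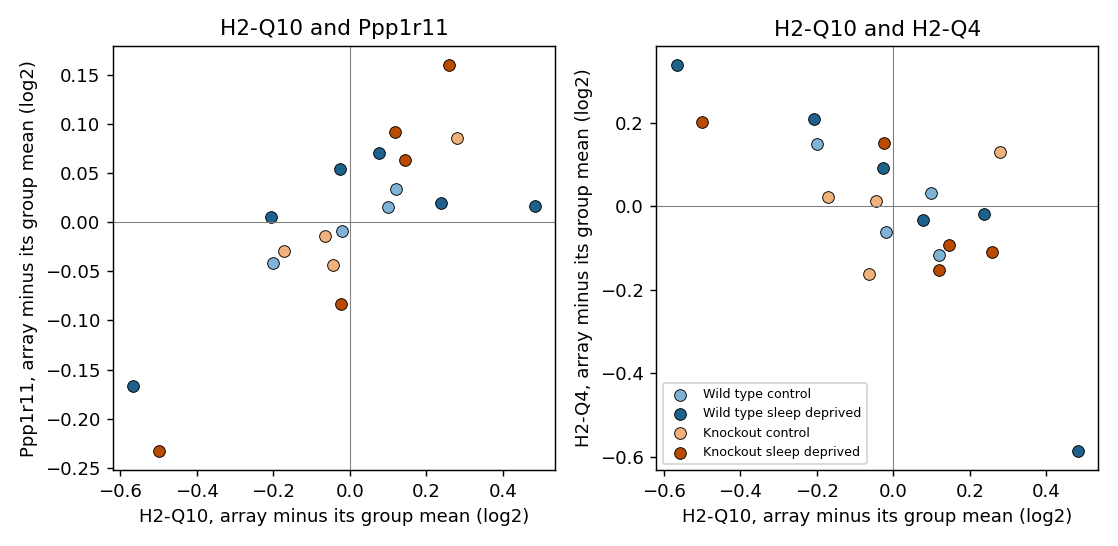
Deviation from the group mean in log2 units of Ppp1r11 and H2-Q4 (y axes) against that of H2-Q10 (x axis), 1 point per array and coloured by group. Ppp1r11 rises with H2-Q10 (r = 0.80) and H2-Q4 falls with it (r = -0.75), and the most distant points are sleep-deprived arrays.

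Of the 12 other class I and antigen presentation probe sets, 9 had a negative correlation within groups and 3 a positive one, from -0.75 for H2-Q4 to 0.52 for the pair H2-T22 with H2-T9, and H2-K1 stood at -0.08. Their median was -0.30, and it was -0.08 without the 2 arrays farthest from their group means and 0.01 without the 3, when 6 were negative and 6 positive. The first component of the within-group variation over all probe sets held 17.7% of that variance, and the deviations of H2-Q10 correlated with it at 0.50 and those of H2-Q4 at -0.53. Over all probe sets, the correlation with H2-Q10 within groups had a median of -0.09, a first percentile of -0.67 and a 99th percentile of 0.60. Its part in the likeness of single genes was not tested.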

How the data were processed

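Forebrain RNA of 19 samples was read on Affymetrix Mouse Gene 2.0 ST arrays. The deposited values are log2 expression values per probe set, and the submitters' processing notes name RMA, oligo and limma without versions. The sources used here do not give the settings of that processing. The record marks the sample tables as incomplete, and 8751 probe sets were used here, of which 1308 had 1 gene symbol, 1178 several and 6265 none, and 346 repeated the values of another. No raw scans were used, so signal over background is unknown. Array medians ran from 5.90 to 6.07 and correlations between arrays from 0.981 to 0.993.

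The deposited log2 values were fitted in limma 3.58.1 (R 4.3.3, lmFit and eBayes) with 4 group means over 19 arrays, no covariates and 7 contrasts, with Benjamini-Hochberg adjustment over 8751 probe sets and a threshold of 0.05. The fit was tested on simulated data. Alternatives were a trended robust prior, array weights, quantile normalisation, median centring, leaving out the dimmest 40% of probe sets, 1-symbol probe sets, repeated probe sets counted once, only the groups compared, a replicate block and leaving out each array. Correlations without 2 or 3 arrays and the liver sum without Trf were added after seeing the data.

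H2-Q10, the gene lists and the tests were chosen with earlier results of these data known. Named genes are the class I and antigen presentation genes with a probe set, the 5 highest and 2 lowest correlations with H2-Q10 over arrays and within groups (1 probe set per gene, predicted genes and small RNAs passed over), and the 3 nearest measured genes on each side. Apoa2 and the marker genes come from the cell type lists. Gene order and chromosomes came from RefSeq's GRCm38.p6 table, which matched 1045 of 1121 genes. The files name no genome build.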

Additional observations from a re-analysis of the deposited data

Results flagged for a closer look

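Groups of 4 to 6 arrays were examined for an array apart from the rest, over H2-Q10, the other class I and related probe sets and 4 groups each, 72 groups in all. Dixon's criterion marked 6 of them (8.33%), where chance marks about 5%, and none was a group of H2-Q10. For the probe set of H2-Q2 and H2-D1, sleep-deprived wild-type replicate 1 read 6.82. For 1 of the probe sets of H2-Q7, H2-Q8 and H2-Q9, sleep-deprived wild-type replicate 6 read 5.75. H2-K1 read 7.96 in sleep-deprived wild-type replicate 2, above the rest of its group, and 7.18 in sleep-deprived knockout replicate 3, below the rest of its group. The probe set of H2-T3 and H2-T18 read 5.74 in wild-type control replicate 4, and a probe set shared by Klra1 and other Ly49 genes read 3.93 in sleep-deprived wild-type replicate 1.

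The other probe set of H2-Q7, H2-Q8 and H2-Q9 was marked because its sleep-deprived arrays differed from controls in opposite directions in the genotypes. How many of all probe sets do so was not counted. Its mean went from 7.94 to 8.11 in wild types and from 8.17 to 7.87 in knockouts, and all sleep-deprived arrays of each genotype lay on the corresponding side of the control mean. The interaction was -0.47 with an adjusted p of 0.21 in limma, and did not pass. For the first-named probe set of the same genes it had the opposite sign, 0.29 (adjusted p = 0.49 in limma), and did not pass.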

How the results depend on the processing

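No alternative brought a tested H2-Q10 contrast past the threshold. With each array left out in turn, the log2 difference of H2-Q10 between sleep-deprived and control arrays ran from 0.11 to 0.23 averaged over genotypes, from -0.043 to 0.17 in wild types and from 0.21 to 0.40 in knockouts, and the interaction from 0.10 to 0.34. The wild-type difference reversed without control replicate 3 (-0.01) and without sleep-deprived replicate 5 (-0.043). The described genotype difference ran from 0.40 to 0.52 averaged over conditions, 0.25 to 0.40 in controls and 0.45 to 0.69 after sleep deprivation. No probe set other than the 1 used names H2-Q10, so that alternative gave no value, and the fit of only the groups compared does not apply to averages or the interaction.

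Several counts of probe sets called moved by over 1.5 times, and the cause was not tested, while the count for the genotype in controls was 0 in all 28 alternatives. A trended robust prior gave 2 for sleep deprivation in wild types, 39 in knockouts and 2 for the averaged genotype. Array weights gave 37 for averaged sleep deprivation and 43 in knockouts, and median centring gave 14 for averaged sleep deprivation. Without the dimmest 40%, the counts were 39, 2 and 35 for sleep deprivation (averaged, wild type, knockout) and 0 for the averaged genotype. With 1-symbol probe sets alone, fewer being tested, they were 8 averaged, 7 in knockouts, 28 between genotypes among sleep-deprived arrays and 0 for the interaction. With only the groups compared, they were 12 for sleep deprivation in knockouts and 36 for the genotype after sleep deprivation. Leaving out each array gave 14 to 29 for averaged sleep deprivation, 0 to 3 in wild types, 6 to 33 in knockouts, 0 to 3 for the averaged genotype, 0 to 0 for the genotype in controls, 67 to 298 after sleep deprivation and 2 to 41 for the interaction.

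The replicate numbers are shared between groups, and none of 25 same-numbered pairs had a correlation of deviations over 0.1 (range -0.22 to 0.08). No pairing was seen by this measure, which cannot exclude that same-numbered arrays shared a step such as hybridisation. With the replicate block, the H2-Q10 differences were 0.17, 0.06 and 0.27 for sleep deprivation (averaged, wild type, knockout), 0.21 for the interaction, and 0.45, 0.35 and 0.56 between genotypes (averaged, controls, sleep-deprived). The block gave 9, 1 and 10 calls for sleep deprivation in the same order, 2 for the averaged genotype and 70 for the genotype after sleep deprivation.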
